A study of Mus musculus with 22 samples.

Results

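The data compared 3 tumor-bearing mammary samples from PyMT mice at week 8, the stage named adenoma/MIN (mammary intraepithelial neoplasia), with 3 mammary gland samples from FVB mice of the same age. These are 6 of the 22 samples of a mouse series that followed tumors through ages of 6, 8, 10 and 12 weeks. DNA methylation was measured by ERRBS (enhanced reduced representation bisulfite sequencing), in which a restriction enzyme selects CpG-dense fragments and bisulfite turns unmethylated cytosines into T. Positions were taken from the autosomes where all 6 samples had at least 10 reads, which left 1174801 of the 1625271 CpG cytosines listed anywhere in the series. The tumor mice were F1 females heterozygous for the MMTV-PyVT transgene, bred from transgenic FVB/N males and FVB females, and the controls were homozygous FVB females. The labels name no drug or other agent, and both groups share the FVB background. The transgene is driven by the mouse mammary tumor virus promoter, so the oncogene acts in mammary epithelium, while the tumors and the glands were both sampled in bulk. The stage was named by the age of the mice. The study states that a pathologist examined the stained PyMT tissue and that features typical of the stage were seen.

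The polyomavirus middle T protein works as a scaffold that recruits Src family kinases, PI3 kinase and Shc, and it transforms mammary epithelium without further agents. Methylated CpGs at promoters rich in CpG usually go with silenced genes, whereas gene bodies and intergenic DNA are mostly methylated in normal tissue. A normal gland holds luminal and myoepithelial cells inside a fat pad with adipocytes, fibroblasts, vessels and leukocytes, each with its own methylation pattern. In such bulk samples, a change in the mix of cells and a change of methylation within a cell type cannot be told apart.

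The 6 libraries listed 1314077 to 1366737 positions each, at a mean coverage of 60.2 to 79.2 reads. PyMT replicate 1 had a median coverage on the X chromosome of 0.473 times that of its autosomes, against 0.923 to 0.946 times in the other 5 samples, which is why only autosomes were used. Relative coverage of the single autosomes stayed between 0.959 and 1.04 in all 6 samples. FVB replicate 2 stood apart from the other controls. It differed from FVB replicate 1 by a root mean square of 9.28 points and from FVB replicate 3 by 8.83, while those 2 differed by 6.67. The 3 tumor samples differed from each other by 7.53 to 8.2 points. FVB replicate 2 lay at least 25 points above or below both other controls at 1.68% of positions, against 0.358% to 0.84% for each of the other 5 samples within their own groups. The mean chi-square of a position between samples of a group was 2.09 to 3.47, so no pair agreed within sampling noise.

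Mean methylation was slightly lower in adenoma/MIN than in controls, and the sign of the difference depended on where the CpG lay. Over all autosomal positions the PyMT samples had 25, 24.3 and 24.3% methylation and the FVB samples 25.6, 25.9 and 25.8%. The groups did not overlap, and the difference of -1.21 points had an exact two-sided permutation p of 0.1, the smallest value that 3 samples against 3 allow. Weighted by reads the difference was -2.25 points. Intergenic positions lost the most, from 57.2% ± 0.316 in controls to 53% ± 1.16 in tumors (SD, n = 3 each, exact permutation p = 0.1). Introns went from 62.5% ± 0.291 to 59.6% ± 0.894 and coding exons from 63.8% ± 0.28 to 62.1% ± 0.683 (exact permutation p = 0.1 for each), and weighted by reads the coding exon difference was -2.85 points. In the other direction, core promoters (within 500 bp of a transcription start site, TSS) stood at 1.69% ± 0.0069 in controls and 1.86% ± 0.008 in tumors, again without overlap (exact permutation p = 0.1). The promoter shoulders, from 500 bp to 2 kb, had 10.4% ± 0.128 and 10.1% ± 0.136, and these groups overlapped (exact permutation p = 0.2).

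The sign of the mean difference turned with CpG density, although most gained and most lost positions alike lay in CpG-poor windows. In CpG-rich windows, which held 55.7% of the positions, the tumor samples had 1.96, 2.01 and 2.04% and the controls 1.74, 1.69 and 1.7%. In CpG-poor windows the tumor samples had 53.9, 52.4 and 52.3% and the controls 55.6, 56.2 and 56%. The difference in CpG-rich windows was 0.294 points upward and that in CpG-poor windows -3.1 points (exact permutation p = 0.1 for each). The same sign of difference in CpG-rich DNA was seen away from promoters. CpG-rich intergenic positions had 6.6% ± 0.171 in controls and 7.44% ± 0.0117 in tumors, while CpG-poor intergenic positions had 65.1% ± 0.387 and 60.1% ± 1.34. CpG-rich coding exons went from 22.4% ± 0.13 to 23.5% ± 0.358. CpG-poor core promoters had a mean of 10.2% in both groups, with a difference of -0.00109 points (exact permutation p = 1). In introns, coding exons and intergenic DNA PyMT replicate 1 was the tumor nearest to the controls, with 54.3% at intergenic positions against 52.4 and 52.2% in the other 2.

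Single positions were tested with a logistic model of methylated and unmethylated reads, and a differentially methylated cytosine (DMC) had q below 0.01 and a difference of at least 10 points. By this rule 36917 positions gained methylation in adenoma/MIN, 3.14% of those tested, and 79758 lost it, 6.79%. Gains were thus 31.6% of all DMCs. With a term for overdispersion 14171 gained and 34937 lost positions remained by count. The median gain was 20.6 points and the median loss -23.7 points. The 3 tumors lay outside the range of the 3 controls at 27873 of the gained DMCs (75.5%) and at 62615 of the lost ones (78.5%), compared with 11.9% of all positions tested. This test counts reads as independent and takes no account of the spread between mice. When limma was run with the 6 mice as units, no position had q below 0.01 together with a difference of at least 10 points. With no minimum difference, 102212 had an unadjusted p (limma) below 0.05 and 241 an adjusted p (limma, Benjamini-Hochberg) below 0.05. The DMC counts are therefore counts of differences between these libraries.

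DMCs concentrated at CpGs that were partly methylated in normal glands. To define the starting level from other animals, positions were grouped by their mean in the 9 FVB samples of weeks 6, 10 and 12. Of 165078 positions between 20 and 80% in those glands, 14.6% gained and 29% lost methylation in adenoma/MIN. Of 223662 positions at 80% or above, 2.23% gained and 12.8% lost. Of 785494 positions below 20%, only 0.986% gained and 0.432% lost. By location, losses ran from 0.491% of core promoter positions through 11.6% of coding exons and 15.9% of introns to 17% of intergenic positions. Gains were highest in UTR or noncoding exons (8.04%) and introns (7.7%), and stood at 5% of intergenic positions and 0.708% of core promoter positions. In the core promoters of CpG-rich windows, 0.353% of positions gained and 0.0611% lost methylation. The 10-point rule limits these shares. The week 8 controls had a mean of 0.517% in that class and 0.971% in the class below 20%, which leaves little room for a loss. At 80% or above their mean was 90.6%, which leaves little room for a gain. Among the autosomes the share gained ran from 2.59% on chromosome 9 to 3.81% on chromosome 12, and the share lost from 5.52% on chromosome 19 to 7.94% on chromosome 15.

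**Figure D1:**
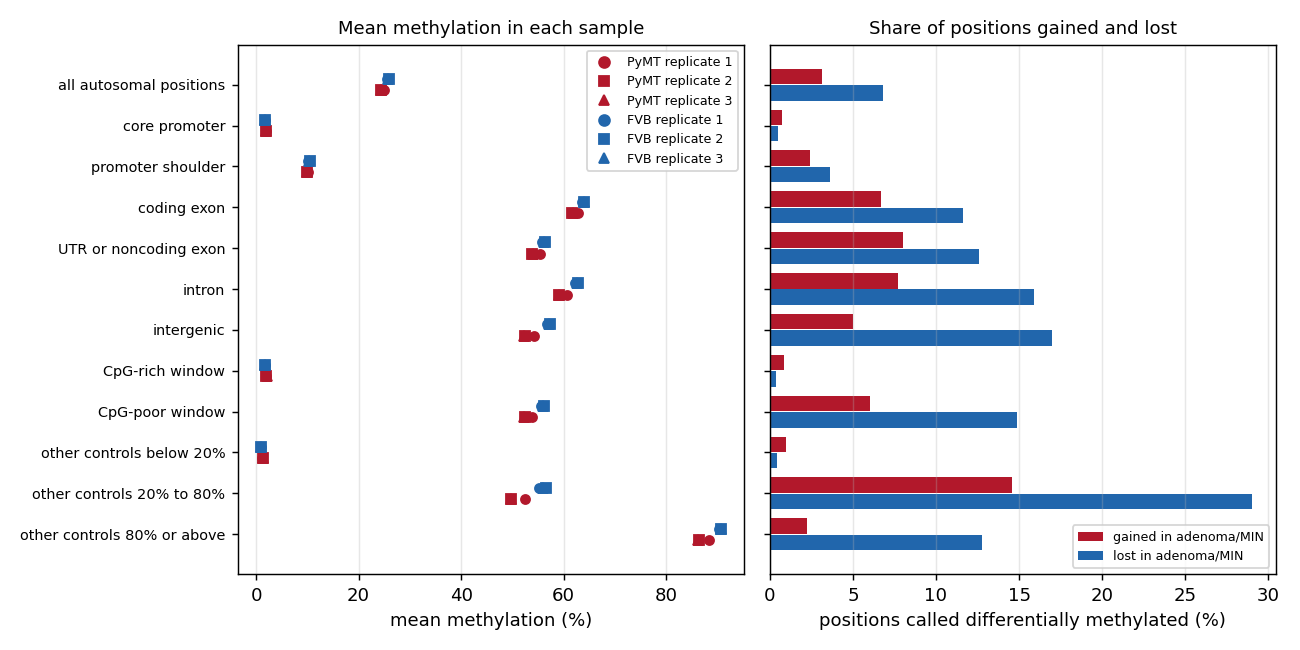
Left, mean methylation in percent of each of the 6 samples over classes of autosomal CpG positions (red, PyMT; blue, FVB; marker shape, replicate). Right, percent of the positions of each class called gained (red) or lost (blue), with 3.14% gained and 6.79% lost over all positions and the highest shares, 14.6% and 29%, where control glands of other ages were between 20 and 80%.

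Neighbouring positions with gaps of at most 100 bp were joined into regions. Regions were kept where 3 or more positions averaged a change of 20 points or more and where 1 DMC or more reached 25 points. This gave 1758 gained and 5298 lost regions, with a median length of 89 and 90 bp. Gained regions had a median of 41.1% in controls and 70.2% in tumors, and lost regions a median of 63.6% and 29%. As the rule sets the difference, these levels are a description. Introns held 43.7% of the gained regions and 34.6% of the lost ones, and intergenic DNA 28.7% and 40.4%. Core promoters held 6.71% of the gained regions and 3.1% of the lost ones. Only 70 gained (3.98%) and 29 lost regions (0.547%) lay mostly in CpG-rich windows. Of all positions tested, 13.5% lay in introns, 17.2% in intergenic DNA, 47.2% in core promoters and 55.7% in CpG-rich windows. These are shares of positions, and the shares over all joined regions were not computed.

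The sequences of 6 regions are shown because their differences were among the 5 largest of their direction in regions of at least 5 positions. They are RefSeq GRCm38 (mm10) plus strand, and capitals mark CpGs with a DMC in the direction of the region. CpGs in lower case were either not tested or not DMCs. The Nr4a1 sequence is the central part of its region.

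Shank2, gained, chr7:144284310-144284375: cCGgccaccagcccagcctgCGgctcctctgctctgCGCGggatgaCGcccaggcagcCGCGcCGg
Epn3, gained, chr11:94491234-94491452: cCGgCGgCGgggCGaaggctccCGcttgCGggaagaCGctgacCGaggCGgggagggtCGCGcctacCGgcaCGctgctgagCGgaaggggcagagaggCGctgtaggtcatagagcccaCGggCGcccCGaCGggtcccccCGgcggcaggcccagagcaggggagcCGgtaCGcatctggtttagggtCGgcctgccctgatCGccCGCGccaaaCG
Nr2f2, gained, chr7:70357881-70357930: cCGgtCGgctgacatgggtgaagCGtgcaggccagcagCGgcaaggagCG
Surf6, lost, chr2:26892285-26892435: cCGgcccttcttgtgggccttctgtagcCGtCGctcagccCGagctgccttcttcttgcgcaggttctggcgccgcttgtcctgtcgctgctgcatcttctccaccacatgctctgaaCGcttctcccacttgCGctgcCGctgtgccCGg
Nr4a1, lost, chr15:101270127-101270426: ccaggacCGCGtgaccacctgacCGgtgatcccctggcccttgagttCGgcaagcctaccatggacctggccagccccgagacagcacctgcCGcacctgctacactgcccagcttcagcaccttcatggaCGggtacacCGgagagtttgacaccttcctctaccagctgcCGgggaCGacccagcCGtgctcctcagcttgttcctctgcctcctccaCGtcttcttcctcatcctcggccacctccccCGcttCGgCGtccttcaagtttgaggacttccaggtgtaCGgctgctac
Fras1, lost, chr5:96781437-96781550: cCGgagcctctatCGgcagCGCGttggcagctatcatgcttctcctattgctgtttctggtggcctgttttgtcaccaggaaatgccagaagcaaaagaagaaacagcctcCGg

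All 8 CpGs of the Shank2 sequence and all 5 of the Nr2f2 and Fras1 sequences are in capitals. The Epn3 sequence has 27 of its 28 CpGs in capitals, the Nr4a1 sequence 15 of 17 and the Surf6 sequence 8 of 12.

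The gained region with the largest difference lay just upstream of an internal TSS of Shank2, a scaffold protein of excitatory synapses, within an intron of the longer transcript. Its 12 positions had means of 66.2, 70.4 and 80.3% in the tumors and 12.8, 17.2 and 19% in the controls, at a mean coverage of 73.6 reads. A second Shank2 region, chr7:144284593-144284735 in the first exon downstream of that TSS, had 71.3, 61.4 and 70.7% against 21.2, 12.5 and 12.9% over 14 positions. Both regions were thus mostly unmethylated in each control and mostly methylated in each tumor.

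Epn3 encodes an epsin that acts in clathrin-mediated endocytosis. In its last coding exon, 34 positions within 217 bp had 59.5, 71.1 and 71.6% in the tumors and 18.6, 3.48 and 14.4% in the controls. All 34 were gained DMCs, and all lay in CpG-rich windows. The region in a coding exon of Nr2f2, the gene of the nuclear receptor COUP-TFII, had 83.7, 67.5 and 78.1% against 41.2, 12.6 and 23.5% over 5 positions. An intronic region of the homeobox gene Pknox2, chr9:37144420-37144537, had 77, 85 and 80.8% against 34.5, 22.1 and 27.6% over 9 positions. The groups were apart in each of these regions, as in 96% of all gained regions. All were chosen for large differences in these same samples, so the separation follows largely from the rule. The controls spread widely in Nr2f2 and Epn3, where FVB replicate 2 was the lowest.

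The largest loss was in a coding exon of Surf6, which encodes a nucleolar protein of ribosome assembly. Its 8 positions had 85.7, 96.3 and 93.7% in the controls and 27.9, 28.8 and 10.6% in the tumors. The Axin1 region, chr17:26188132-26188183, lay in a coding exon of the scaffold of the beta-catenin destruction complex and had 86.2, 76.1 and 87.2% in controls and 25.2, 22 and 13.6% in tumors over 5 positions. In Nr4a1, an immediate early gene for a nuclear orphan receptor, 18 positions over 307 bp of a coding exon had 78, 92.6 and 89.1% in controls and 30.9, 23.3 and 15.3% in tumors. Every one of the 18 was a lost DMC. The untranslated part of the last exon of Slc35c2, a nucleotide sugar transporter family gene, chr2:165277006-165277068, went from 80.7, 95.2 and 85.5% to 25.3, 26.2 and 12.7%. The last coding exon of Fras1, an extracellular matrix protein of basement membranes, went from 71.4, 81.2 and 80% to 16.3, 19.2 and 14.6%. In all 5 lost regions the controls were at 71.4% or above and the tumors at 30.9% or below. They too were chosen as the largest differences in these same samples.

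The other ages, each with its own tumors and controls, gave values for these regions that the rule had not used. Weeks 6 and 12 hold only 2 PyMT samples each, against 3 controls. Of the 1712 gained regions with at least 3 positions covered in all samples of week 6, 1692 (98.8%) were higher in hyperplasia than in the week 6 controls, with a median difference of 20.9 points against 26.3 at week 8. At week 10, 1717 of 1721 were higher (median 29.5 points), and at week 12, 1719 of 1724 (median 31.6 points). Lost regions were lower at week 6 in 5166 of 5189 (median -25.9 points, against -28.5 at week 8), at week 10 in 5193 of 5204 (median -33.5) and at week 12 in 5182 of 5194 (median -33.5). The upstream Shank2 region differed by 40.6 points at week 6, 64.6 at week 10 and 64.3 at week 12. The Surf6 region differed by -64.9, -69.6 and -74.2 points at those ages. Pknox2 had the smallest difference of the 10 at week 6, 22.7 points, and 44.7 at week 10. No test was run on the regions across ages.

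**Figure D2:**
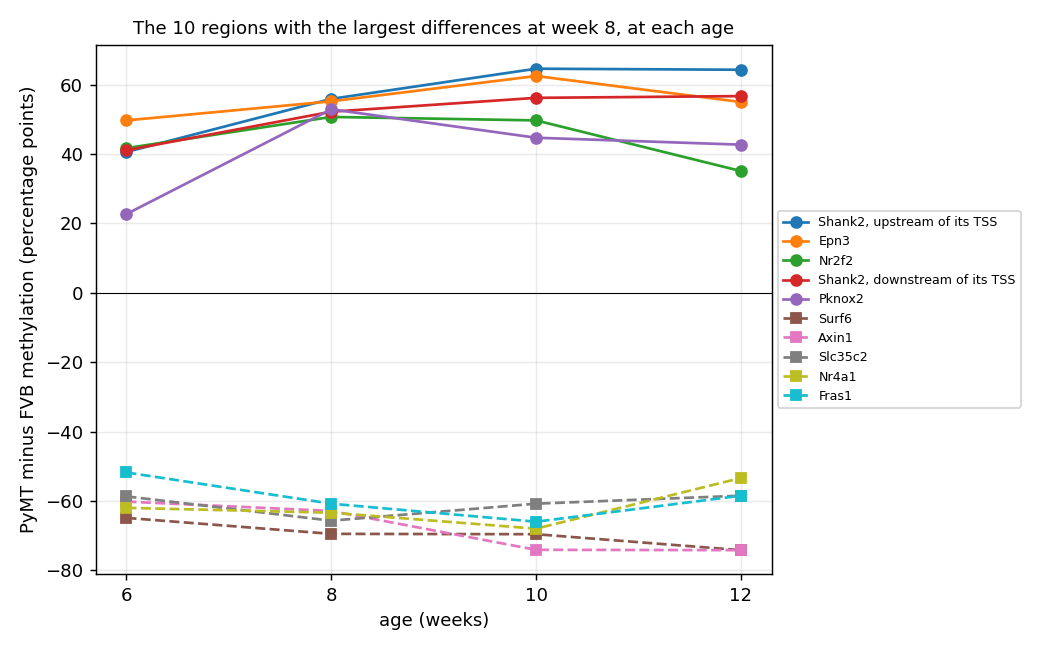
Mean methylation of PyMT minus FVB samples in percentage points (vertical axis) at the ages of 6, 8, 10 and 12 weeks (horizontal axis) in the 10 regions with the largest differences at week 8, by the gene they lie in (circles, gained; squares, lost). Every line keeps its side of 0, from 22.7 points in Pknox2 at week 6 to -74.2 points in Surf6 and Axin1 at week 12.

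Promoters were compared as the mean methylation of the positions within 2 kb of the TSSs of a gene, with each mouse as 1 value. A promoter was called when its adjusted p (limma, Benjamini-Hochberg) was below 0.05 and its difference at least 5 points. Of 16061 promoters, 307 were higher in adenoma/MIN (1.91%) and 462 lower (2.88%). The balance depended on the rule, with 907 higher and 804 lower without a minimum difference, 141 and 150 within 500 bp of the TSS, and 146 and 261 by edgeR on summed reads. The tumors and controls did not overlap at 30.3% of all promoters. Promoters called higher had a median of 17.6% in the controls and a median difference of 11.9 points. Promoters called lower had a median of 51.8% in the controls and a median difference of -17 points, while the median of all promoters was 0.628%. Of the 11199 promoters mostly in CpG-rich windows, 95 were called higher and 49 lower. Gained DMCs lay in the promoters of 2419 genes, lost DMCs in those of 3185, and both kinds in 571. Without FVB replicate 3 the number of calls fell to 78 higher and 140 lower.

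The largest gain among promoters with at least 10 positions was that of Mdk, which encodes midkine, a heparin-binding growth factor (chr2:91929805-91932297, minus strand). Its 16 positions, all within 500 bp of a TSS, had 51.3, 59.4 and 53.6% in tumors and 14.4, 12.5 and 13.6% in controls, a difference of 41.3 ± 2.42 points (SE, limma adjusted p = 0.00537). Every one of the 16 was a gained DMC. Mab21l1, a developmental gene of the eye and other organs, had 63.6, 67.4 and 74.7% against 40.9, 17.6 and 25.5%. Its difference was 40.6 ± 6.36 points (limma adjusted p = 0.016), and the call was lost without PyMT replicate 3 or FVB replicate 3. Pnma1, a neuronal antigen gene, rose from 14.7, 12.5 and 10.8% to 41.8, 42.8 and 55.6%, with 55 of its 59 positions gained, and its controls were low in every sample.

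Angpt2, the angiopoietin that antagonises the TIE2 receptor, had 77.8, 73.2 and 79% in tumors and 49.2, 39.3 and 40.2% in controls over 15 positions downstream of its TSS. Klb encodes beta-Klotho, the co-receptor of the hormone FGF21, and had 77.2, 75.6 and 77% against 51.9, 35.7 and 40.8%. L1td1, a gene derived from the LINE-1 retrotransposon, had 46.9, 41.3 and 41.3% against 17.5, 6.47 and 13.6%. The Shank2 promoter, which includes both regions above, had 43.3, 41.6 and 47.4% against 14.8, 13 and 14.3% over 49 positions. The groups did not overlap in any of these 4 genes, which were chosen for their large differences in the same samples. The remaining 3 of the 10 were Gm13205, Esam and Rgs22, with differences of 34.2, 31.4 and 30.7 points, and the Rgs22 call was lost in 4 of the 6 fits that left out 1 sample. The Klb call was lost only without FVB replicate 3.

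The largest loss was at Foxi1, a forkhead transcription factor of ionocytes (chr11:34204341-34208089, minus strand). Its 11 positions, all within 500 bp of the TSS, had 61.6, 72.8 and 68.3% in controls and 21.3, 15.9 and 14.7% in tumors, a difference of -50.2 ± 3.52 points (SE, limma adjusted p = 0.00537). All 11 were lost DMCs. Fam83a, which encodes a signaling protein that binds RAF and PI3 kinase, had 39.2, 52.3 and 52% in controls and 13.5, 10.1 and 8.04% in tumors. Klhdc7a had 53.4, 69.9 and 59.2% against 20.5, 26.9 and 18.5%, with all 21 of its positions also counted for the microRNA gene Mir2139 beside it. The Mir2139 call rests on 39 positions, which include those 21.

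The other losses of this size held the microRNA genes Mir6926 and Mir3102, whose differences were -45.9 and -36.7 points, and Gm829 with -43.2 points. Nup210l, a nucleoporin-like gene, had 67.7, 80.2 and 77.8% in controls and 39.1, 46 and 32.9% in tumors. Pilra, an inhibitory receptor of myeloid cells, had 66.9, 60.1 and 69.7% in controls and 35.3, 33.9 and 20.3% in tumors over 12 positions upstream of its TSS. Akap6, an anchoring protein for protein kinase A, had 45.5, 53.5 and 58.8% in controls and 14.8, 29.2 and 16.4% in tumors. In all 10 promoters the lowest control was above the highest tumor, but they were chosen as the largest called losses in these same samples. Over all promoters 30.3% did not overlap. The calls of Nup210l and Pilra were lost without FVB replicate 3, that of Mir3102 without PyMT replicate 3 or FVB replicate 3, and that of Akap6 without PyMT replicate 3, FVB replicate 2 or FVB replicate 3.

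**Figure D3:**
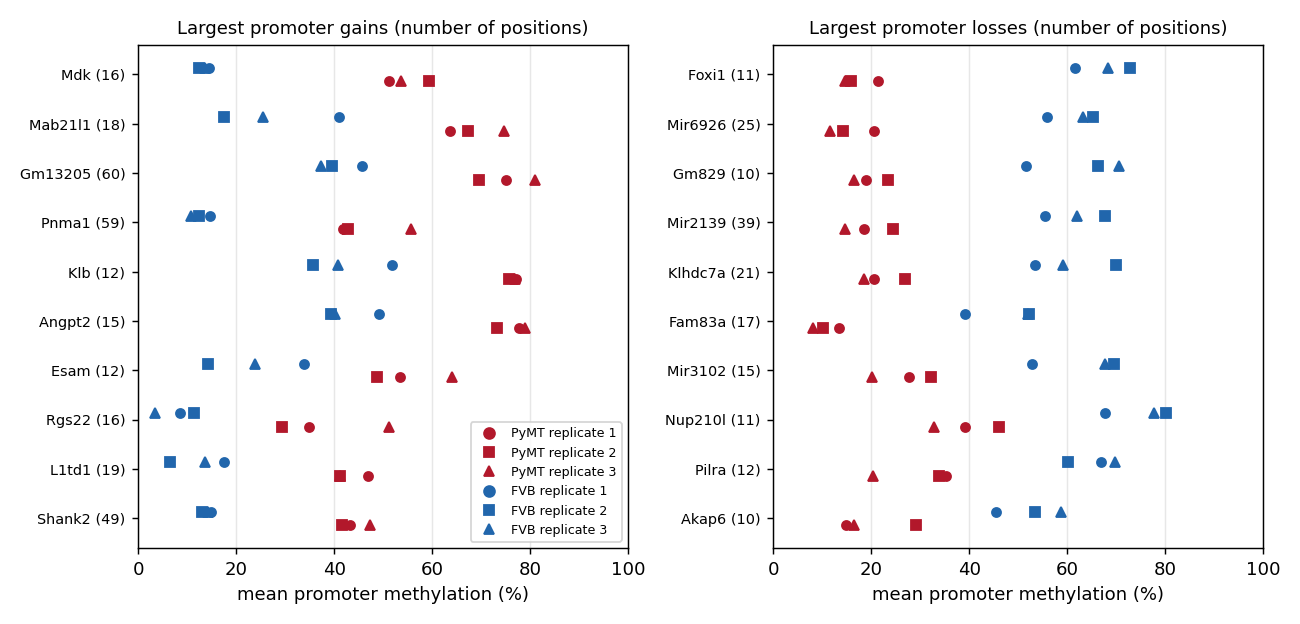
Mean promoter methylation in percent (horizontal axis) of each of the 6 samples (red, PyMT; blue, FVB; marker shape, replicate) for the 10 largest called gains (left) and losses (right), with the number of positions in brackets. The 3 tumors and the 3 controls do not overlap in any of the 20, from Mdk (51.3 to 59.4% against 12.5 to 14.4%) to Foxi1 (14.7 to 21.3% against 61.6 to 72.8%). The 20 were chosen for their differences in these samples, and 30.3% of all promoters did not overlap.

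Genes of the luminal epithelium were the list with the most lost promoters. Of 22 measured of 25 listed, 8 fell and none rose, beside 2.88% lower and 1.91% higher over all promoters, and the median difference was -1.8 points against 0.0132 for all promoters. Ehf and Elf5 are ETS transcription factors of epithelium, and Elf5 drives the alveolar fate. Elf5 had 25, 32.4 and 37.1% in controls and 8.08, 9.76 and 7.6% in tumors over 9 positions (-23 ± 2.99 points, limma adjusted p = 0.0109). Ehf had 52.8, 60.1 and 59% against 31.4, 18.5 and 6.21% over only 4 positions, and its call was lost without PyMT replicate 2, FVB replicate 2 or FVB replicate 3.

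Cldn4, a claudin of epithelial tight junctions, had 34.9, 38 and 40.6% in controls and 11.4, 16.1 and 8.92% in tumors over 29 positions (-25.7 ± 2.39 points, limma adjusted p = 0.00685). Prlr, the prolactin receptor, had 34.2, 54.2 and 37.5% against 5.7, 20.9 and 9.71% over 4 positions, and kept its call only when PyMT replicate 2 was the sample left out. The simple epithelial keratin Krt18 fell by 15.4 points, Krt7 by 15.3, the luminal transcription factor Gata3 by 8.43 and the milk protein gene Csn3 by 9.84. Of these 4 calls only that of Krt7 depended on single samples, and it was lost in 5 of the 6 fits. Over the whole list, mean promoter methylation was 6.42 to 8.29% in the tumors and 13.9 to 16.1% in the controls. The steroid hormone receptor genes Esr1 and Pgr had differences of 1.21 and 0.799 points, and neither passed the test.

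Lists for the other cells of the gland held fewer calls. Of 10 basal and myoepithelial genes measured of 17 listed, Tagln, an actin-binding protein of contractile cells, rose from 23.3, 12.1 and 15.6% to 43.7, 39.9 and 47.5% (26.7 ± 3.42 points, limma adjusted p = 0.0105). Myh11, the smooth muscle myosin, fell from 13.8, 16.6 and 15.2% to 8.09, 8.12 and 6.26%, and the median of the list was 0.314 points. Both calls were lost without FVB replicate 3. Of 15 endothelial genes measured of 19, 3 rose and none fell, with a median of 1.52 points, beside 1.91% higher and 2.88% lower over all promoters. Esam, an adhesion molecule of endothelial junctions, had 53.4, 48.8 and 64% in tumors against 33.9, 14.2 and 23.9%. Pecam1 (CD31) had 65.1, 69.7 and 74.5% against 55.2, 55.4 and 47% over 3 positions. Eng, the TGF-beta co-receptor endoglin, had 54.6, 43.5 and 55% against 30.2, 27.8 and 27% over 9 positions.

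These endothelial calls were among the less stable ones. The Pecam1 call was lost whichever of the 6 samples was left out, the Esam call in 5 of 6 fits and the Eng call in 3. Only 4 of the 9 Eng positions were covered in the 17 samples of weeks 6, 8 and 10, and over those the difference was -3.91 points at week 6, 3.23 at week 8 and -23.7 at week 10 (limma adjusted p = 0.731, 0.73 and 0.00105). Mean methylation of the 15 endothelial promoters was 21 to 23.2% in tumors and 16.5 to 18.3% in controls. Cdh5, another defining endothelial gene, had a difference of -18.1 points and was not called.

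Adipocyte genes had a median of -0.0391 points, and of 14 measured of 20 listed, only Lep, which encodes leptin, was called. It went from 53.8, 61.2 and 53.1% in controls to 38.4, 42.7 and 44.7% in tumors (-14.1 ± 3.16 points, limma adjusted p = 0.043). The defining adipocyte genes Adipoq and Fabp4 had too few positions to be measured. Of 11 fibroblast genes none was called, and the largest difference was that of Tcf21 with 27, 58 and 47.1% in controls and 21.5, 24.2 and 15.5% in tumors (limma adjusted p = 0.12). Of 10 leukocyte genes measured of 26 listed, Cd8a fell from 75.3, 82.3 and 74.4% to 66.7, 62.9 and 62.8%. Calls of both Lep and Cd8a were lost whichever sample was left out. Over all promoters 1.91% were called higher and 2.88% lower. The mean over the leukocyte list was 38.7 to 40% in tumors and 40.8 to 42.7% in controls, and over the adipocyte list 22.4 to 25.4% and 26.5 to 27.5%. Whether the mix of cells had a part in the other differences was not tested.

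Wnt signaling runs from secreted ligands through Frizzled receptors to beta-catenin, with Dickkopf proteins among its secreted modulators. Of 47 genes of the pathway measured of 49 listed, 3 rose and none fell, with a median of 0.299 points, where 1.91% of all promoters were higher and 2.88% lower. Fzd2, a Frizzled receptor (chr11:102604431-102608058, plus strand), had 32.2, 32 and 31.9% in tumors and 11.4, 8.9 and 9.29% in controls, a difference of 22.1 ± 1.04 points over 72 positions (SE, limma adjusted p = 0.00537). The gain lay away from its TSS. The 59 positions 500 bp to 2 kb downstream had means of 38.9% in tumors and 12% in controls and held all 43 gained DMCs. The 11 positions within 500 bp had 0.388 and 0.459%, so with a window of 500 bp the sign of the Fzd2 difference turned, to -0.07 points.

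Dkk3, a divergent Dickkopf family member, rose from 6.13, 5.97 and 5.94% to 20.7, 25.4 and 26.2% (18.1 ± 1.51 points, limma adjusted p = 0.00569), within 500 bp of its TSSs. Ajap1, an adherens junction protein that binds E-cadherin and beta-catenin, rose over 245 positions from 1.4, 1.05 and 1.39% to 8.66, 13.6 and 13.9% (10.8 ± 1.41 points, limma adjusted p = 0.011), a call lost only without FVB replicate 3. The Ajap1 gain was spread on both sides of 500 bp, with 57 gained DMCs among 143 positions within that distance and 46 among 101 farther downstream. The Frizzled receptor Fzd5 had 5.11, 4.58 and 5.13% in tumors and 1.17, 0.625 and 0.867% in controls. Its adjusted p was 0.00537 (limma), but the difference of 4.05 points stayed under the 5-point minimum. All 20 gained DMCs of Fzd5 lay 500 bp to 2 kb downstream, where the means were 9.68 and 1.63%.

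**Figure D4:**
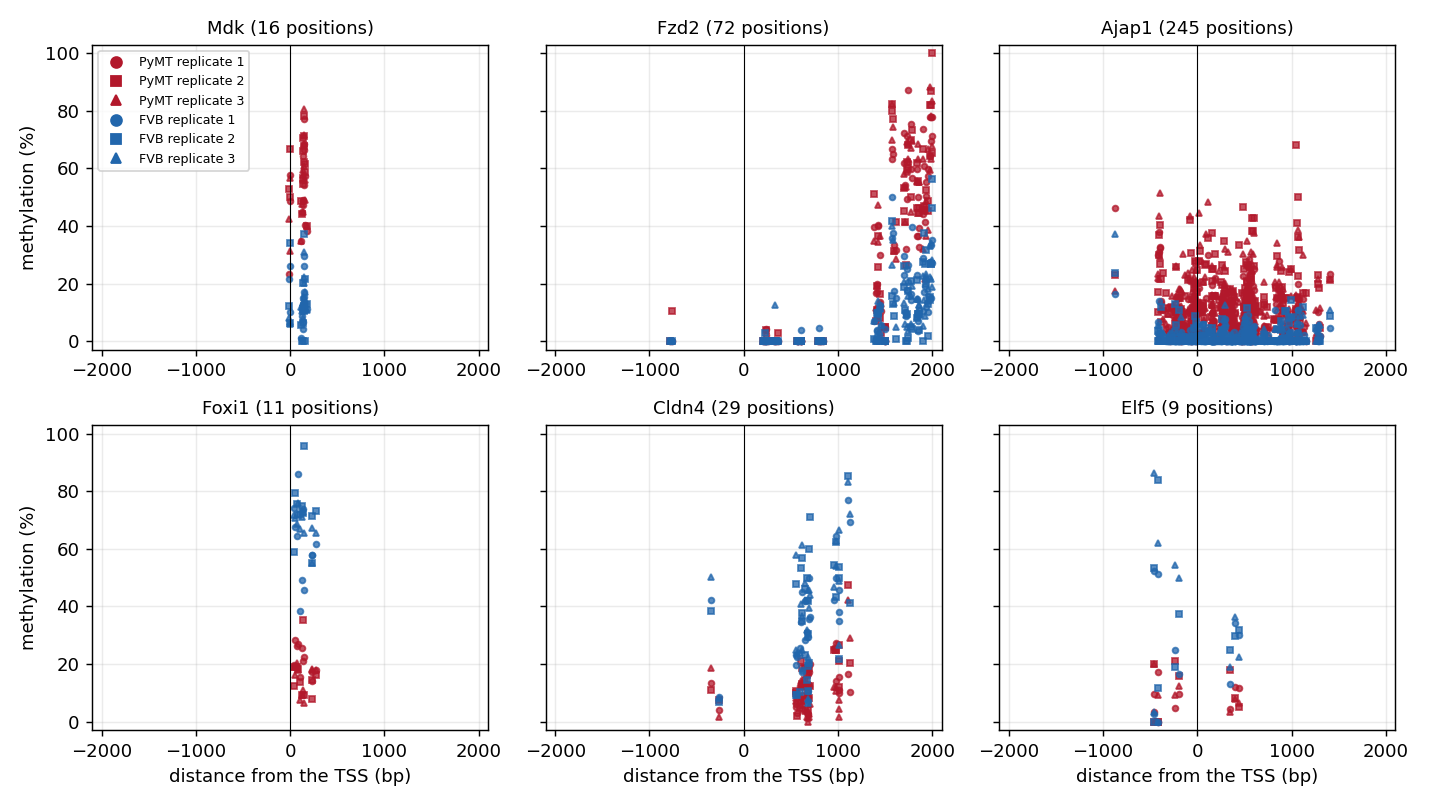
Methylation in percent (vertical axis) of each CpG position in each of the 6 samples against its distance from the TSS in bp (horizontal axis) for 6 promoters (red, PyMT; blue, FVB; marker shape, replicate). In Fzd2 the tumor values rise above the controls from more than 1 kb downstream, whereas in Mdk the groups are apart right at the TSS. In Foxi1 they are apart from its first measured position, 39 bp downstream.

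Polycomb complexes mark the promoters of developmental genes with methylated histone H3 and keep them silent. The study named Polycomb targets for all 4 stages, given as examples, and 33 for late carcinoma alone from these samples, so both lists are no independent evidence of a direction. The 44 entries used here for all stages hold Tp73 a second time under its mouse symbol Trp73. Of 40 measured for all stages, 5 rose and none fell, with a median of 1.21 points (all promoters, 1.91% higher and 2.88% lower). Besides Mab21l1 and Esam these were Cyp26c1, an enzyme that degrades retinoic acid, Tmem88, a membrane protein that binds Dishevelled, and Tcea3, a transcription elongation factor. Cyp26c1 had 57.4, 55.8 and 60.6% in tumors and 45.6, 43.7 and 40.6% in controls. Tmem88 had 64.3, 60.4 and 64.9% against 51.8, 47.5 and 48.6%, with 82.4 and 58.7% upstream of its TSS and 18.3 and 30.3% downstream. Tcea3 rose by 6.78 points, from 3.88, 1.53 and 2.59% to 9.2, 8.94 and 10.2%. The calls of Cyp26c1 and Tmem88 were each lost in 4 of the 6 fits without 1 sample, and that of Tcea3 in none. Of 32 late carcinoma genes none was called, their median was 0.772 points, and the largest difference was 6.08 points at Sctr, the secretin receptor (limma adjusted p = 0.158). Pdx1 (2.34 points), Wt1 (2.11), Dok6 (1.51), Fli1 (1.36) and Hoxd13 (1.06) were higher with adjusted p below 0.05 (limma) but under the 5-point minimum. None of the list was lower in this way. The study listed genes with a gained DMC in the promoter, a different rule. Its late carcinoma list kept genes with such DMCs at that stage alone. Few gains in these week 8 samples therefore follow largely from that choice. DMCs of either direction lay in some of these promoters at week 8, such as 2 gained at Pdx1 and 8 lost at Nkx3-2.

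Among the Hox genes, which set positional identity, all 39 listed were measured, 1 rose, 2 fell and the median was 0.349 points. These counts lie near the shares over all promoters, 1.91% higher and 2.88% lower. Hoxd4 went from 43.7, 47.6 and 52.4% to 36.4, 27.3 and 28.9%. Hoxb6 went from 14, 14.9 and 17.2% to 5.37, 10.5 and 4.7%, where the loss lay 500 bp to 2 kb downstream and the 13 positions nearer to the TSS had a difference of 1.23 points. Hoxd1 rose from 2.09, 1.99 and 1.86% to 6.23, 7.94 and 6.88% over 88 positions, all of them shared with the noncoding gene Haglr. The calls of Hoxd4, Hoxb6 and Hoxd1 were lost in 4, 5 and 2 of the 6 fits without 1 sample. Of 20 Notch pathway genes none was called and the median was 0.0212 points. The largest difference was that of Dll4, a ligand of vessel sprouts, with 3.93 points, and all 13 of its gained DMCs lay upstream. It shares 75 of its 93 positions with Gm14207.

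Of 21 tumor suppressor genes known to be methylated in human breast cancer, Dkk3 and Hic1 were called higher and none lower, and the median was 0.431 points. Over all promoters 1.91% were called higher and 2.88% lower. Dkk3 is also 1 of the 3 Wnt genes called higher, so the 2 lists are not separate. Hic1, a transcriptional repressor, had 19.7, 18.4 and 19.7% in tumors and 10.1, 9.09 and 9.87% in controls over 260 positions (9.59 ± 0.718 points, limma adjusted p = 0.00537). Within 500 bp of its TSSs the means were 32.1 and 11.3%. Cdh1 (-2.36 points, limma adjusted p = 0.0122), Rassf1 (-0.884, limma adjusted p = 0.0265) and Cdh13 (3.36, limma adjusted p = 0.0414) passed the test but stayed under the 5-point minimum. The other 16 did not pass, from -0.468 points at Cst6 to 4.17 at Cdkn1c, and 14 of the 21 differences were above 0. Of 14 genes of the DNA methylation and Polycomb machinery, only Dnmt3l was called, in the lower direction, beside 2.88% lower over all promoters. Dnmt3l, the cofactor of the de novo methyltransferases, went from 79.9, 81.2 and 72.3% to 55.3, 32 and 47.9% over 4 positions. It lost its call in 4 of the 6 fits without 1 sample. The enzymes Dnmt1 and Dnmt3b differed by 0.457 and 0.806 points and were not called.

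None of 21 imprinted genes and none of 18 germline genes was called, with medians of 0.451 and 0.899 points. As only 1.91% of all promoters were called higher and 2.88% lower, lists of this size would hold few calls at those shares. Snrpn, an imprinted gene expressed from the paternal copy, had 54.6, 67.1 and 55.4% in controls and 40, 46.9 and 41.3% in tumors (limma adjusted p = 0.0593). Ddx4, a germ cell RNA helicase, had 81.9, 71.7 and 83% in controls and 87.7, 90.7 and 91.3% in tumors (limma adjusted p = 0.098). In both genes FVB replicate 2 was the control farthest from the tumors. Levels over the germline list were 73.4 to 74.2% in controls and 74.4 to 75.2% in tumors.

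**Figure D5:**
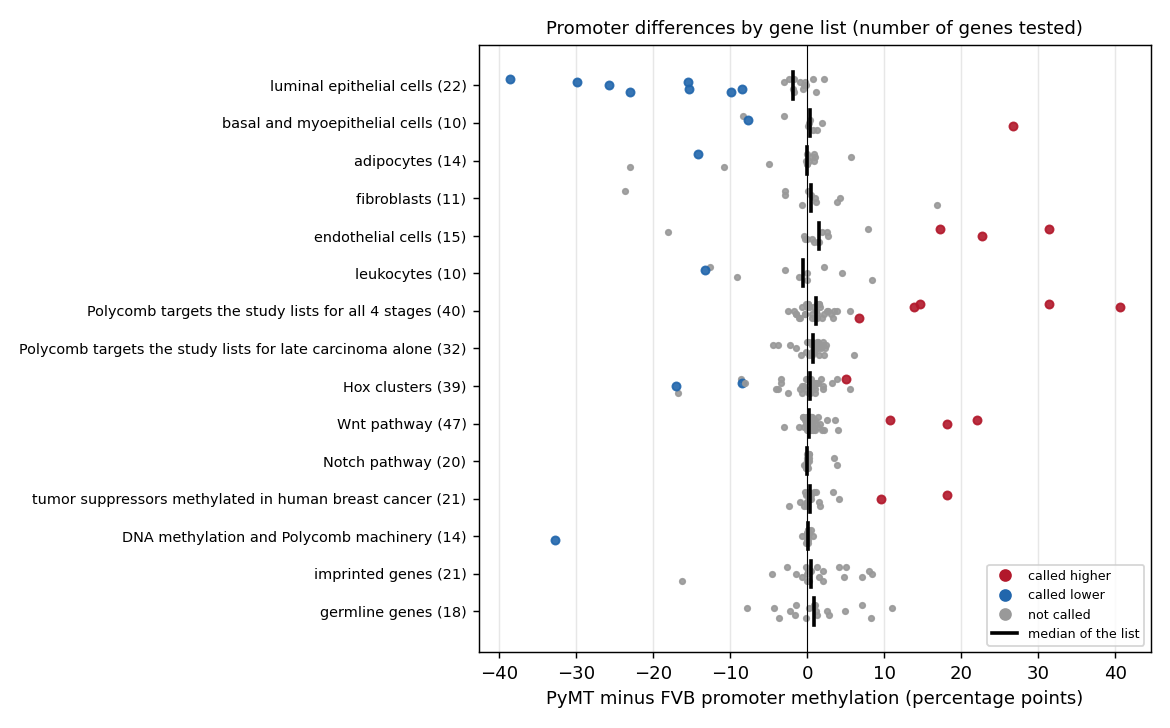
Difference in promoter methylation, PyMT minus FVB in percentage points (horizontal axis), of each measured gene of 15 lists, with the number of genes in brackets (red, called higher; blue, called lower; gray, not called; black bar, median of the list). The luminal list holds 8 of 22 promoters called lower and none called higher. The Polycomb list for all stages holds 5 of 40 called higher and the endothelial list 3 of 15. The Wnt list holds 3 of 47 called higher and the tumor suppressor list 2 of 21. None of these 4 lists holds a promoter called lower. Over all promoters 1.91% were called higher and 2.88% lower. Dkk3 is counted in both the Wnt and the tumor suppressor list.

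The neighbouring stages showed the same directions at these promoters. Of the 306 promoters called higher at week 8 that had values in the 17 samples of weeks 6, 8 and 10, 299 were higher in hyperplasia than in week 6 controls and 303 higher in early carcinoma than in week 10 controls. Of the 450 called lower, 444 and 446 were lower. Over all promoters 40.4% were above 0 at week 6 and 49.1% at week 10, against 53.1% at week 8. The median difference of the promoters called higher was 7.29 points at week 6, 11.6 at week 8 and 14.2 at week 10 over the same positions, and that of the promoters called lower -13.3, -16.9 and -19.1. These medians at week 8 come from the samples that chose the promoters. Mdk differed by 29.1, 41.3 and 48.7 points at the 3 ages, Ajap1 by 4.03, 10.9 and 15.7 and Foxi1 by -42.1, -50.2 and -59.1.

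The change between stages was tested as the difference of the PyMT minus FVB differences. Between weeks 8 and 6, none of 15956 promoters passed (limma, adjusted p below 0.05), with 1076 at an unadjusted p below 0.05 and a lowest adjusted p of 0.133. Between weeks 10 and 8, 1 passed, with 933 at an unadjusted p below 0.05. For Ajap1 the difference grew by 6.88 ± 1.86 points from week 6 to week 8 (SE, limma adjusted p = 0.555) and by 4.84 ± 1.76 from week 8 to week 10 (limma adjusted p = 0.731). For Mdk the steps were 12.1 ± 8.15 and 7.43 ± 7.69 points (limma adjusted p = 0.805 and 0.954). The lowest adjusted p between weeks 8 and 6 was shared by Xrcc5, Il12a, Selenoi, Mir124a-1 and Mir124a-1hg. Il12a, a subunit of interleukin 12, changed most among them, from 15.8 points at week 6 to -10.3 at week 8, and with a coverage of at least 20 reads its week 8 difference turned to 6.5 points.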

How the data were processed

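ERRBS libraries of 3 PyMT and 3 FVB samples of week 8 were compared. The authors aligned the reads to mm10 with Bismark and deposited, per sample, each CpG cytosine with a count of at least 10 reads and the percent of reads methylated or unmethylated, strands listed apart and replicates not pooled. The version of Bismark is not given in the sources used here. Methylated reads were computed as coverage times the deposited percent, and autosomal positions present in all 6 samples were kept.

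Positions were tested with a likelihood ratio test of a logistic model with group as the only term, with Benjamini-Hochberg q, where the study used methylKit. Regions were built in Python 3.11.15 (gaps of at most 100 bp, 3 positions, 1 DMC of 25 points, the mean of 20 points that the study set in eDMR), and eDMR itself was not used here. Promoters (2 kb on each side of curated RefSeq TSSs of GRCm38, at least 3 positions) were tested on mean percent with limma 3.58.1 (trend, Benjamini-Hochberg) in R 4.3.3. Differences between stages were limma interaction terms over the 17 samples of weeks 6, 8 and 10. Class means were compared with exact two-sided permutation tests. CpG-rich windows were 500 bp with at least 55% GC and an observed to expected CpG ratio of at least 0.65. The test scripts were tested on simulated data.

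Named promoters were the 10 largest called gains and losses with at least 10 positions, up to 4 called members of each list (or the 1 with the largest difference), the 5 with the lowest p per stage difference, Fzd5 and Ajap1. Named regions were the 5 largest of each direction with at least 5 positions. Other names were chosen after their values were seen. The members and the gene lists were chosen with earlier results of these data known.

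Replicates are separate mice per the study's methods. Reads carry no molecular identifiers, so the tests on reads cover counting error only. Alternatives were other coverage minimums, windows, scales, tests, region rules and samples left out, and edgeR 4.0.16 on summed reads. RNA expression was not analysed here.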

Additional observations from a re-analysis of the deposited data

Results flagged for a closer look

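One promoter differed between stages by the interaction test. The promoter of Xrcc5, which encodes the Ku80 subunit of the DNA end-joining machinery, was listed at 0% in all 3 tumors of week 8 and at 1.03, 0.992 and 0.733% in the controls of that age. Its difference moved by 1.05 ± 0.135 points from week 8 to week 10 (SE, limma adjusted p = 0.0371), from -0.917 to 0.132 points. It rests on 8 positions with a mean coverage of 41.5 reads. It did not pass with all 22 samples in 1 fit or with a replicate block. Groups of 3 samples were too small to test single samples as outliers.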

How the results depend on the processing

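The class means kept their sign under all alternatives run. The called promoters kept theirs in 767 of 769 by edgeR and in 492 of 532 tested within 500 bp. Their groups do not overlap, so leaving out samples cannot turn their sign. Gained and lost DMCs numbered 14171 and 34937 with an overdispersion term, 0 and 0 by limma with mice as units (102212 positions at an unadjusted p below 0.05), and 12600 and 36479 at 25 points, where gains were 25.7%. Regions of at least 5 positions numbered 926 and 2054. With pooled reads the mean difference was -2.25 points over all positions, 0.132 in core promoters, -2.85 in coding exons, -4.01 in introns and -4.47 in CpG-poor windows. Promoters called higher and lower numbered 141 and 150 within 500 bp, 146 and 261 by edgeR, 907 and 804 with no minimum difference, 414 and 716 with all 22 samples, and 221 lower with at least 10 positions. With a replicate block they numbered 115 and 178. Deviations of same-numbered samples from their group means correlated at -0.033, 0.020 and -0.021, and those of differently numbered ones at -0.036 to 0.065. Whether samples of the same number were processed together was not tested. The block left 35179 gained and 77003 lost DMCs and 1754 gained and 5293 lost regions. No promoter kept a stage difference between weeks 10 and 8 under the block or with all 22 samples, each giving 0 calls.

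Leaving out 1 sample gave 28718 to 38179 gained and 65246 to 80229 lost DMCs (29.8 to 33.3% gained), 1506 to 2210 gained and 4736 to 6060 lost regions, and 78 to 225 higher and 140 to 366 lower promoters. The mean differences ranged from -1.44 to -1.09 points over all positions, 0.17 to 0.178 in core promoters, -0.37 to -0.242 in shoulders, -2.12 to -1.5 in coding exons, -3.45 to -2.67 in introns, -4.82 to -3.78 in intergenic DNA, 0.276 to 0.316 in CpG-rich and -3.64 to -2.82 in CpG-poor windows. Promoter counts fell over 1.5 times without FVB replicate 3 (78 higher, 140 lower), FVB replicate 2 (142, 260) and PyMT replicate 3 (143, 193), without PyMT replicate 1 for gains (202) and without PyMT replicate 2 for losses (282). An alternative chosen after seeing the data left out PyMT replicate 1 and FVB replicate 2 together: no promoter was called (3215 at an unadjusted p below 0.05), and 26880 gained and 66485 lost DMCs remained by count. With 2 samples a group this fit has fewer degrees of freedom.

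Single promoters turned sign at Fzd2 (-0.07 points) and Hoxb6 (1.23) within 500 bp, at Il12a (6.5) and Selenoi (-0.0281) with 20 reads, and at Gm15179 (0.357) without PyMT replicate 2, its values without 1 sample running from -0.698 to 0.357. Of 45 called promoters named or listed, 21 kept their call without any 1 sample and 3 (Lep, Pecam1, Cd8a) lost it in all 6 fits. Coverage of 20 reads, merged strands, Storey q, the arcsine scale and gaps of 200 bp kept counts within 1.5 times. The causes were not tested.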

Other observations

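The X chromosome, left out of every comparison, held a difference at promoters in the sample with low X coverage. At 10190 X positions within 500 bp of a TSS, PyMT replicate 1 had a mean of 3.95%, the other 2 tumors 27.5 and 28.8%, and the controls 25.1, 24.4 and 22.9%. At 11820 X positions over 2 kb from a TSS the 3 tumors had 64, 63.9 and 64.1% and the controls 69.5, 69.4 and 69.2%. All 6 samples listed 224 to 242 positions on the Y chromosome. Methylation of the mitochondrial DNA was read at 0.177 to 0.276% in the 6 samples.

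Promoters below the 5-point minimum held more gains than losses. With adjusted p below 0.05 (limma, Benjamini-Hochberg), 600 promoters were higher by less than 5 points and 342 lower, against 307 higher and 462 lower among those of at least 5 points. The median promoter stood at 0.628% in controls, which leaves little room for a loss. Of the tumor samples, PyMT replicate 1 lay above both others by at least 25 points at 4905 positions and below both at 2436, while PyMT replicate 2 lay above at 3264 and below at 6602.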
